A study of Mus musculus with 12 samples.

Results

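The genes described here encode proteins of the neural extracellular matrix: the lecticans Vcan, Ncan and Bcan, the link protein Hapln1, the tenascins Tnc and Tnr, the spondins Spon1 and Spon2, reelin (Reln) and alpha-tectorin (Tecta). They are 10 of the 19057 genes that the array annotation names by 1 symbol, and 28 of 45281 probes carry their names. Of the 10, 8 were chosen by matrix family, while Spon2 and Tecta were selected on their large difference between the tumor genotypes, so values of these 2 are given as a description with no test. Where a gene has several probes, the one with the highest mean over the 12 arrays stands for it unless a further probe is named.

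RNA from 12 samples was hybridised to Illumina MouseWG-6 v2.0 BeadChips, 4 arrays per group, to compare medulloblastomas (MBs) of mice with and without Norrin and their normal precursors. The NdpKO;Ptch+/- MBs came from symptomatic mice with 1 functional copy of Ptch, whose loss of activity switches on Sonic hedgehog signalling, and a germ-line lacZ disruption of Ndp, the X-linked gene of the secreted ligand Norrin. The Ptch+/- MBs carry the same Ptch lesion with Ndp intact, and the WT GNPs are cerebellar granule neuron progenitors of wild-type mice at postnatal day 6, purified on a percoll gradient and pre-plated to remove adherent cells. The labels give no age for the tumors; they name a mixed strain for the NdpKO;Ptch+/- MBs and C57Bl/6 for both other groups, so strain and Ndp genotype cannot be told apart in the labels, whereas the methods speak of animals of the same breeding cohort. By the methods, NdpKO;Ptch+/- mice are all males while controls include both sexes, so sex may also differ between the groups. The disruption of Ndp is in every cell of the mutants, and whole tumor tissue was set against purified cells.

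Values are normalized log2 signals, in which 1 unit is a doubling. The background limit is 4.5, a value carried over from earlier work on these data that was set after values had been seen. The array median was 4.15, and 31.8% to 32.5% of probes per array reached the limit. Ndp lay at background on all 12 arrays and could not check the genotype. Of 7 markers of granule progenitors, Atoh1, Mycn and Gli1 were under the limit on every array, while Zic1 averaged 13.74 ± 0.11 in NdpKO;Ptch+/- MBs, 13.89 ± 0.18 in Ptch+/- MBs and 14.12 ± 0.18 in WT GNPs (SD, n = 4 each). The WT GNP samples also held RNA of mature oligodendrocytes: Mbp, a myelin protein, averaged 9.36 ± 0.63 in NdpKO;Ptch+/- MBs, 8.10 ± 0.44 in Ptch+/- MBs and 13.01 ± 0.42 in WT GNPs.

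The extracellular matrix of the brain is poor in collagen and is built on hyaluronan. Lecticans are chondroitin sulfate proteoglycans that bind hyaluronan at one end and tenascins at the other, and link proteins lock the lectican to hyaluronan; together they form perineuronal nets and the looser matrix around migrating precursors. Tenascins and F-spondins act on adhesion and neurite growth, and reelin is the secreted signal of granule neurons that positions Purkinje cells in the developing cerebellum. Alpha-tectorin is a structural protein of the tectorial membrane of the inner ear.

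Of the 10 genes, 7 reached the background limit on at least 1 array. Hapln1, Tnr and Spon1, each read by 1 probe, stayed under it on all 12 arrays. Tnr ran from 4.12 to 4.15 and Hapln1 from 4.11 to 4.13 over the arrays, so no difference could be measured for these 3. Differences were tested with limma over 45281 probes for the 8 genes not selected on their values, with Benjamini-Hochberg adjustment of p. The titles give each sample its own code, and a legend of the study counts GNP arrays by animals, but 1 mouse per tumor is not stated in the labels; p measures the spread between these samples.

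Between the tumor genotypes, 0 of the 5 tested genes above background passed in either direction at an adjusted p under 0.05, where 1.54% of the 9648 genes above background were higher and 2.42% were lower in NdpKO;Ptch+/- MBs. Vcan counts among the 5 only through the WT GNPs, the group where it is high. It was at background in all tumors on its main probe, so it could not be compared between the genotypes. In NdpKO;Ptch+/- MBs against WT GNPs, 1 of the 5 was higher (Bcan) and 2 were lower (Tnc and Vcan), beside 14.4% of all genes higher and 13.1% lower. In Ptch+/- MBs against WT GNPs the same 3 genes passed in the same directions, beside 18.6% of all genes higher and 18% lower. Both of these comparisons use the same WT GNP samples.

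**Figure D1:**
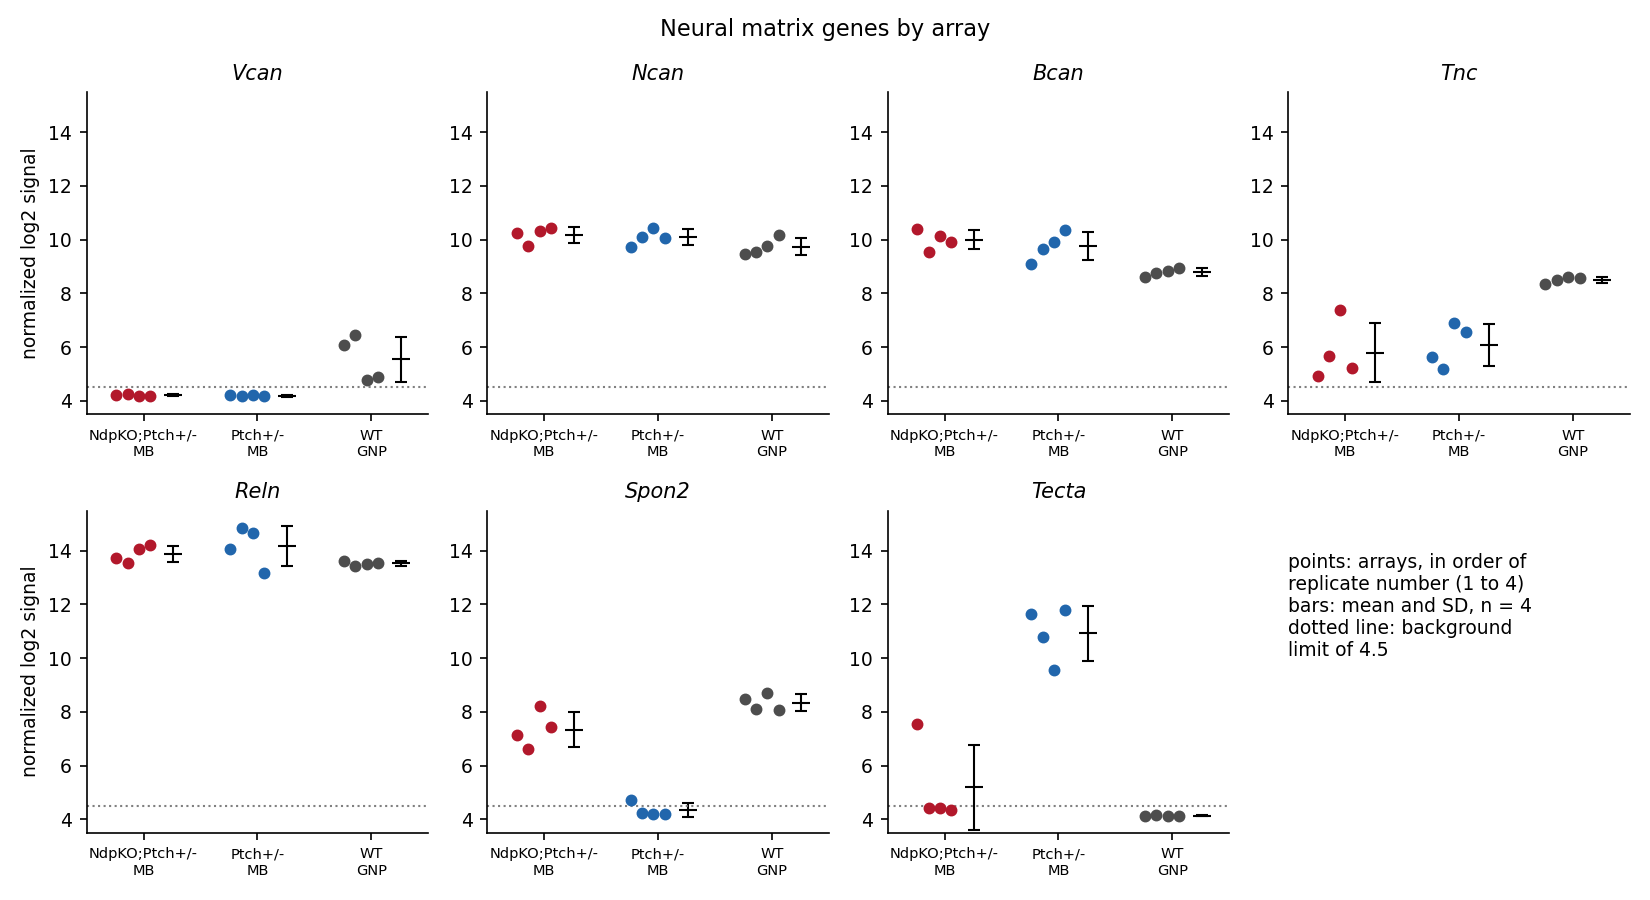
Normalized log2 signal of the 7 genes above background, by array (points, in order of replicate number) in NdpKO;Ptch+/- MBs, Ptch+/- MBs and WT GNPs, with the mean and SD of 4 arrays and the background limit of 4.5 (dotted). Tnc and Vcan are higher in WT GNPs than on any tumor array, Bcan is lower there, and Tecta exceeds 9.5 only in Ptch+/- MBs.

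The sequences before the transcription start are shown for the gene with the largest difference between tumor genotypes (Tecta) and for the 2 genes with opposite differences from WT GNPs on more than 1 probe (Tnc and Bcan), so that the promoter DNA next to these RNAs can be read. RefSeq (GRCm38.p6) promoters were matched for 8 of the 10 genes at 10 starts; Spon1 and Spon2 were not matched. Each line is the 250 bases upstream of a start, 5′ to 3′ on the gene's strand, which is the minus strand for all 3. Capitals mark a TATAA match between 40 and 20 bases before the start.
Tecta, chr9:42401691-42401940: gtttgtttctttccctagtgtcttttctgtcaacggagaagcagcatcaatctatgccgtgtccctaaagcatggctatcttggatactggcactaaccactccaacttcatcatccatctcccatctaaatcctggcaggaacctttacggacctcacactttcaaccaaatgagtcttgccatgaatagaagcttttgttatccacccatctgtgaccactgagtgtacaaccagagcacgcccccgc
Tnc, chr4:64046937-64047186: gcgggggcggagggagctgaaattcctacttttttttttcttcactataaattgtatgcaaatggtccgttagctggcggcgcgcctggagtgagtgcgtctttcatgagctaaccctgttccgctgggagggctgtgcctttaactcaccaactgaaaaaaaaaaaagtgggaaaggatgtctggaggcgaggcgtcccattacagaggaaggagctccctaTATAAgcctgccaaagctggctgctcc
Bcan, chr3:88000357-88000606: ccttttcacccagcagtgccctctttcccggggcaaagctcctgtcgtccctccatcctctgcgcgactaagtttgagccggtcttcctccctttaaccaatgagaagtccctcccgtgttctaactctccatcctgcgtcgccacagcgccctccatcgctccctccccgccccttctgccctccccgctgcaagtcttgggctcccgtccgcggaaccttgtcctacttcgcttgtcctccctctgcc

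The Tnc start shown has its TATAA match 27 bases upstream, a motif at that place in 3.31% of 32851 mouse promoters and in 1 of the 10 starts of these genes. A GLI motif (GACCACCCA) and a TCF/LEF motif (CTTTGAT), the binding motifs of the factors at the end of the hedgehog and Wnt pathways, were searched on both strands and matched at 0 of the 10 starts, against 0.225% and 3.21% of all promoters. An E-box (CAGCTG) was matched at 1 start, that of Ncan, against 13% of all promoters. These are letter matches in a short window, not sites.

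Among the lecticans, brevican (Bcan), a brain-specific lectican made by astrocytes and oligodendrocyte progenitors, was higher in both kinds of tumor than in WT GNPs. Its main probe read 10.38, 9.55, 10.13 and 9.90 in NdpKO;Ptch+/- MBs, 9.11, 9.65, 9.90 and 10.37 in Ptch+/- MBs, and 8.60, 8.77, 8.85 and 8.94 in WT GNPs. Every tumor array lay above every WT GNP array, and the tumor genotypes overlapped over most of their range. Means were 9.99 ± 0.36 in NdpKO;Ptch+/- MBs, 9.76 ± 0.53 in Ptch+/- MBs and 8.79 ± 0.15 in WT GNPs (SD, n = 4 each). The difference from WT GNPs was 1.20 (SE 0.26, 2.30-fold, adjusted p = 0.0139) in NdpKO;Ptch+/- MBs. In Ptch+/- MBs it was 0.97 (1.95-fold, adjusted p = 0.0296).

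A second Bcan probe gave the same direction with a larger difference. It read 7.37, 5.80, 6.46 and 6.82 in NdpKO;Ptch+/- MBs, 5.58, 6.12, 6.85 and 7.52 in Ptch+/- MBs, and 4.46, 4.61, 4.92 and 4.65 in WT GNPs. The WT GNP arrays lay just above or under the background limit, which compresses the scale there. The log2 difference from WT GNPs was 1.95 (adjusted p = 0.0153) in NdpKO;Ptch+/- MBs and 1.86 (adjusted p = 0.0150) in Ptch+/- MBs. Array by array, both probes put Ptch+/- MB replicate 4 highest and replicate 1 lowest in that group.

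Between the tumor genotypes Bcan differed by 0.23 (95% confidence interval -0.35 to 0.81, adjusted p = 0.801). Its call in Ptch+/- MBs against WT GNPs was lost when any one of Ptch+/- MB replicates 2, 3 or 4 or any WT GNP replicate was left out, with adjusted p between 0.0512 and 0.0777 and differences between 0.76 and 1.02, while that in NdpKO;Ptch+/- MBs held in each such fit. Of 6 oligodendrocyte progenitor markers, 3 were higher in NdpKO;Ptch+/- MBs than in WT GNPs and 3 did not pass, and in Ptch+/- MBs 3 were higher, 1 was lower (Gpr17) and 2 did not pass. Their summed linear signal, carried mostly by Olig1 and Pdgfra, was 12087 to 17439 in NdpKO;Ptch+/- MBs, 10717 to 19645 in Ptch+/- MBs and 5923 to 9805 in WT GNPs. Olig1 was higher by 1.58 in NdpKO;Ptch+/- MBs and by 1.57 in Ptch+/- MBs, whereas Gpr17 averaged 8.81 ± 0.23 in NdpKO;Ptch+/- MBs, 7.58 ± 1.81 in Ptch+/- MBs and 10.04 ± 0.47 in WT GNPs, and Sox10 did not pass.

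Of 10 astrocyte and Bergmann glia markers, 3 were higher in NdpKO;Ptch+/- MBs than in WT GNPs and 7 did not pass, and in Ptch+/- MBs 3 were higher, 1 was lower (Gja1) and 6 did not pass. Gfap was higher by 1.88 in NdpKO;Ptch+/- MBs and by 2.02 in Ptch+/- MBs, and Slc1a2 by 1.47 and 1.46 in that order; these and Gpr17, Sox10 and Gdf10 are named with their values known. The sums of the list overlapped, at 16524 to 24142 in NdpKO;Ptch+/- MBs, 17455 to 36738 in Ptch+/- MBs and 16854 to 19509 in WT GNPs. The part of these cells in the Bcan result was not tested, and in bulk samples a larger number of cells of a type and more RNA per cell cannot be told apart.

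Neurocan (Ncan), the lectican of developing neurons and glia, was bright in all 3 groups. It read 10.23, 9.75, 10.32 and 10.42 in NdpKO;Ptch+/- MBs, 9.72, 10.12, 10.44 and 10.08 in Ptch+/- MBs, and 9.48, 9.55, 9.75 and 10.19 in WT GNPs. All 3 groups overlapped, WT GNP replicate 4 reaching into both tumor ranges. The difference from WT GNPs was 0.44 (95% confidence interval -0.03 to 0.90, adjusted p = 0.230) in NdpKO;Ptch+/- MBs and 0.35 (-0.12 to 0.81, adjusted p = 0.315) in Ptch+/- MBs. Between the tumor genotypes it was 0.09 (-0.38 to 0.56, adjusted p = 0.928), an interval without a change of 1.5-fold in either direction.

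Versican (Vcan), the widely made lectican of embryonic and remodelling matrix, was above background on its brightest probe only in WT GNPs. That probe read 4.21, 4.27, 4.19 and 4.17 in NdpKO;Ptch+/- MBs, 4.23, 4.16, 4.22 and 4.17 in Ptch+/- MBs, and 6.07, 6.46, 4.76 and 4.89 in WT GNPs. All 8 tumor arrays stayed under the limit on it, so the genotypes could not be compared there, and within the WT GNPs replicates 1 and 2 stood well above replicates 3 and 4. WT GNPs averaged at least 2.06-fold more than either kind of tumor (adjusted p = 0.0292 for NdpKO;Ptch+/- MBs and 0.0217 for Ptch+/- MBs).

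Of 6 Vcan probes 3 reached the limit, and the other 2 did not pass in either comparison. One of these 2 lay just above the limit in NdpKO;Ptch+/- MB replicate 1 (4.54), Ptch+/- MB replicate 3 (4.60) and WT GNP replicate 1 (4.58). The call in NdpKO;Ptch+/- MBs was lost without any one of their 4 replicates or without WT GNP replicate 1, with adjusted p between 0.0580 and 0.0801, and that in Ptch+/- MBs without Ptch+/- MB replicate 2 (0.0501) or WT GNP replicate 1 (0.0608).

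Tenascin C (Tnc), a glycoprotein that binds lecticans and is made by Bergmann glia and astrocyte precursors in the cerebellum, was lower in both kinds of tumor. It read 4.92, 5.67, 7.37 and 5.23 in NdpKO;Ptch+/- MBs, 5.63, 5.20, 6.89 and 6.58 in Ptch+/- MBs, and 8.34, 8.50, 8.61 and 8.56 in WT GNPs. Every tumor array lay under every WT GNP array, and tumors of 1 genotype differed far more among themselves than WT GNPs did. Means were 5.80 ± 1.09 in NdpKO;Ptch+/- MBs, 6.07 ± 0.79 in Ptch+/- MBs and 8.50 ± 0.12 in WT GNPs.

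In NdpKO;Ptch+/- MBs Tnc was 6.51-fold lower than in WT GNPs (log2 difference -2.70, SE 0.54, adjusted p = 0.00930). In Ptch+/- MBs it was 5.38-fold lower (-2.43, adjusted p = 0.0121), and both calls held with each array left out. The difference between tumor genotypes was -0.27, with a 95% confidence interval of -1.48 to 0.93 that still holds a change of 2.78-fold down or 1.90-fold up in NdpKO;Ptch+/- MBs (adjusted p = 0.910).

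The second Tnc probe above background read 4.38, 4.90, 6.90 and 4.42 in NdpKO;Ptch+/- MBs, 4.75, 4.38, 6.91 and 4.60 in Ptch+/- MBs, and 7.96, 8.11, 8.32 and 8.15 in WT GNPs. Both probes put replicate 3 highest in each tumor group, and they disagree on Ptch+/- MB replicate 4, which the brighter probe reads near replicate 3 and the dimmer one near background. The log2 difference of the second probe from WT GNPs was -2.99 (adjusted p = 0.0162) in NdpKO;Ptch+/- MBs and -2.98 (adjusted p = 0.0128) in Ptch+/- MBs. Of the 7 Tnc probes, the other 5 stayed under the limit.

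Markers of several cell types were also lower in tumors than in WT GNPs. All 5 oligodendrocyte markers were lower in both comparisons, with summed signals of 536 to 1335 in NdpKO;Ptch+/- MBs, 358 to 555 in Ptch+/- MBs and 7318 to 15731 in WT GNPs. Of 8 fibroblast and meningeal markers 2 were lower and 6 did not pass in each comparison, with sums of 5092 to 8805 in NdpKO;Ptch+/- MBs, 4449 to 12269 in Ptch+/- MBs and 12285 to 14794 in WT GNPs. Dcn, for one, read 9.51, 8.48, 9.06 and 9.99 in NdpKO;Ptch+/- MBs and 11.88, 10.66, 10.35 and 11.10 in Ptch+/- MBs. WT GNPs read 10.57 to 11.01, which the Ptch+/- MBs covered and every NdpKO;Ptch+/- MB lay under.

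Among the astrocyte and Bergmann glia markers, Gdf10 read 8.22, 6.38, 9.12 and 9.05 in NdpKO;Ptch+/- MBs, 7.99, 6.69, 11.04 and 9.19 in Ptch+/- MBs, and 10.62, 10.55, 11.09 and 11.13 in WT GNPs, and did not pass. Like Tnc it was highest in replicate 3 of each tumor group. Within the Ptch+/- MBs the other markers of this list were all highest in replicate 4, among them Gfap (11.64), Slc1a3 (14.48) and Aldoc (11.70). Within the WT GNPs the arrays with more Vcan, replicates 1 and 2, also had higher sums of 4 Purkinje cell markers. These were 1170 and 1246 against 219 and 228 in replicates 3 and 4. Pcp2 alone carried this difference, at 10.13 and 10.22 against 7.38 and 7.46, since the other 3 were under the limit on every array. The sums of 7 endothelial markers were 3553 and 3152 against 2909 and 2340 there, and those of the oligodendrocyte markers 7318 and 13362 against 15731 and 13955. The part of these cells in the Tnc and Vcan results was not tested.

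**Figure D2:**
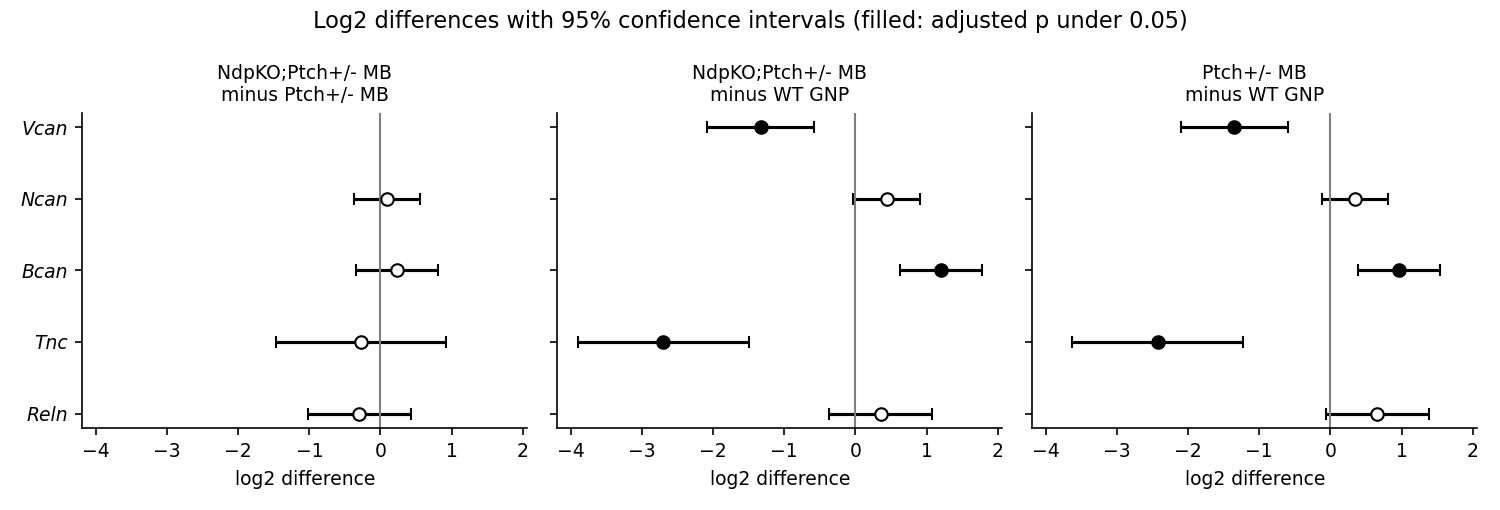
Log2 differences (points) and 95% confidence intervals (lines) of the 5 tested genes above background in 3 comparisons, from limma over 12 arrays, with filled points for an adjusted p under 0.05. Vcan is left out of the comparison of tumors, where all arrays were at background, and its other differences are fitted values against a group at background; the 4 other intervals between tumor genotypes all span 0.

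Reelin (Reln) was bright on every array. It read 13.72, 13.55, 14.08 and 14.21 in NdpKO;Ptch+/- MBs, 14.08, 14.86, 14.64 and 13.17 in Ptch+/- MBs, and 13.63, 13.45, 13.49 and 13.54 in WT GNPs. The Ptch+/- MBs spread over more than 1 log2 unit, their replicate 4 lying under every other array and their replicate 2 above every other. The difference from WT GNPs was 0.36 (95% confidence interval -0.37 to 1.08, adjusted p = 0.559) in NdpKO;Ptch+/- MBs and 0.66 (-0.07 to 1.38, adjusted p = 0.216) in Ptch+/- MBs. Without Ptch+/- MB replicate 4 that second difference was 1.00 and passed (adjusted p = 0.0120). Between the tumor genotypes Reln differed by -0.30 (-1.02 to 0.43, adjusted p = 0.793).

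2 further Reln probes above background gave the same order of the Ptch+/- MBs. The second read 7.16, 7.42, 8.39 and 8.35 in NdpKO;Ptch+/- MBs, 7.73, 9.33, 8.33 and 5.16 in Ptch+/- MBs, and 6.23, 6.63, 6.45 and 5.59 in WT GNPs. The third read 4.58, 4.27, 5.08 and 5.07 in NdpKO;Ptch+/- MBs and 5.55, 7.14, 5.79 and 4.17 in Ptch+/- MBs, and stayed under the limit in WT GNPs. On all 3 probes Ptch+/- MB replicate 2 was highest and replicate 4 lowest in its group, and none of the 3 passed in any comparison.

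**Figure D3:**
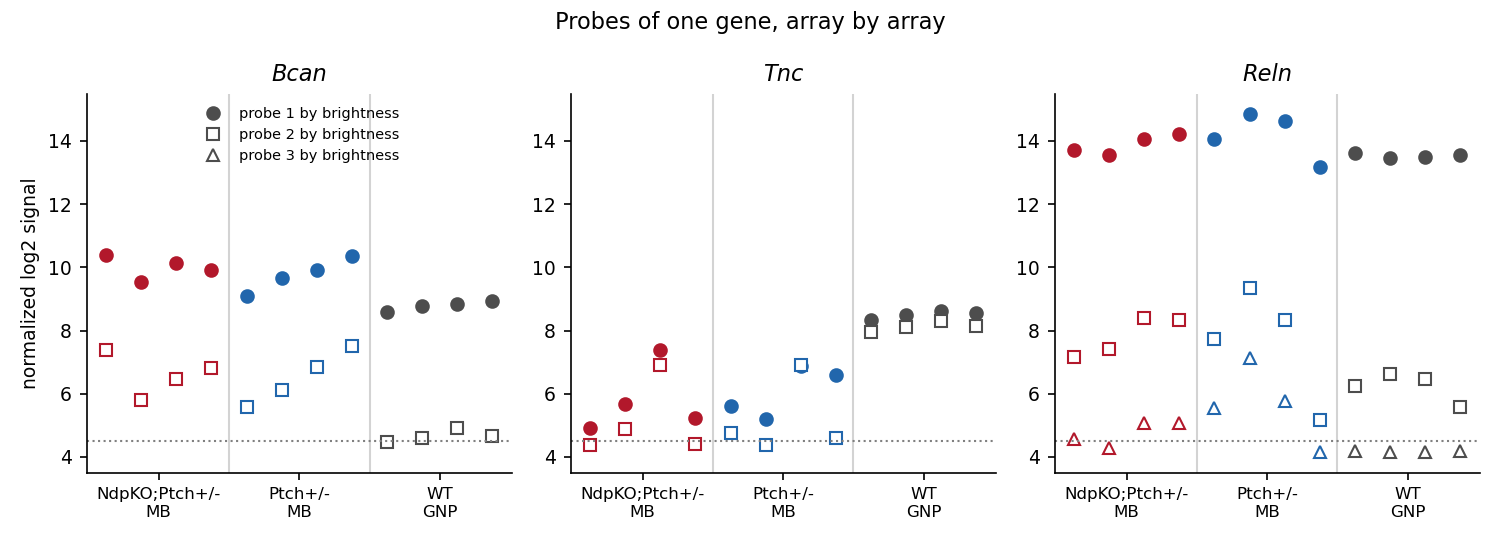
Normalized log2 signal of every Bcan, Tnc and Reln probe above background, array by array in order of replicate number, in NdpKO;Ptch+/- MBs (red), Ptch+/- MBs (blue) and WT GNPs (grey), with the brightest probe as filled circles. The 3 Reln probes share their highest and lowest array in Ptch+/- MBs, while the Tnc probes differ in Ptch+/- MB replicate 4.

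Spondin 2 (Spon2), a secreted thrombospondin-repeat protein known in mice as a pattern recognition molecule and integrin ligand of innate immunity (chr5:33213518-33218254, GRCm38.p6), was selected on the difference that follows. It read 7.12, 6.62, 8.20 and 7.43 in NdpKO;Ptch+/- MBs, 4.72, 4.23, 4.20 and 4.21 in Ptch+/- MBs, and 8.49, 8.12, 8.71 and 8.08 in WT GNPs. Of the Ptch+/- MBs only replicate 1 lay above the background limit, and the lowest NdpKO;Ptch+/- MB lay 1.90 above the highest Ptch+/- MB. NdpKO;Ptch+/- MB replicate 3 lay inside the WT GNP range, and the other replicates of that group lay under every WT GNP. Means were 7.34 ± 0.66 in NdpKO;Ptch+/- MBs, 4.34 ± 0.26 in Ptch+/- MBs and 8.35 ± 0.30 in WT GNPs.

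The fitted Spon2 difference was 3.00 between the tumor genotypes. It was -4.01 for Ptch+/- MBs minus WT GNPs. A second Spon2 probe stayed at background on all 12 arrays, so the pattern rests on 1 probe. Fibroblast marker sums, carried mostly by Igf2, overlapped between the tumor genotypes, as given above, and 0 of the 8 markers passed between them. Dcn was lower on every NdpKO;Ptch+/- MB array than on any Ptch+/- MB array, while the other markers of that list overlapped. Of 7 endothelial markers Emcn alone passed (1.95 higher in NdpKO;Ptch+/- MBs, adjusted p = 0.0321), and the median difference of the 5 above background was 0.92. Their sums, carried mostly by Cldn5, were 1293 to 1990 in NdpKO;Ptch+/- MBs and 1006 to 1709 in Ptch+/- MBs. Cdh5 read 5.17, 5.17, 6.29 and 5.68 in NdpKO;Ptch+/- MBs, 5.16, 4.31, 4.27 and 4.25 in Ptch+/- MBs, and 7.02, 6.27, 6.22 and 5.45 in WT GNPs (adjusted p = 0.235 between tumor genotypes), and was chosen after its values were seen. Like Spon2, it lay above the limit in Ptch+/- MB replicate 1 alone of that group, as did Pecam1 (4.83). Tek was also above it in Ptch+/- MB replicate 3 (4.90), and Emcn and Cldn5 on all 4 arrays of that group. Cldn5 read 9.59 to 10.12 in NdpKO;Ptch+/- MBs and 9.58 to 10.25 in Ptch+/- MBs. Of 6 mural cell markers 0 passed between the tumor genotypes, with a median difference of 0.99 over the 4 above background and sums of 812, 1320, 2309 and 1518 in NdpKO;Ptch+/- MBs, 1185, 322, 481 and 518 in Ptch+/- MBs, and 876 to 1134 in WT GNPs. The part of vessel cells in the Spon2 values was not tested.

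Tecta (chr9:42329622-42401690, GRCm38.p6), read by 1 probe and also selected on its values, had the opposite pattern. It read 7.54, 4.41, 4.44 and 4.36 in NdpKO;Ptch+/- MBs, 11.63, 10.78, 9.54 and 11.78 in Ptch+/- MBs, and 4.14, 4.15, 4.13 and 4.13 in WT GNPs. All 4 Ptch+/- MBs were bright, WT GNPs were at background, and of the NdpKO;Ptch+/- MBs only replicate 1 was above it, still 2.00 under the lowest Ptch+/- MB. Means were 5.19 ± 1.57 in NdpKO;Ptch+/- MBs, 10.93 ± 1.02 in Ptch+/- MBs and 4.14 ± 0.01 in WT GNPs. Ptch+/- MBs averaged at least 86.4-fold more Tecta signal than WT GNPs. The fitted difference between the tumor genotypes was -5.75, and without NdpKO;Ptch+/- MB replicate 1 it was -6.53.

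The signal of choroid plexus markers varied between tumors and is set beside Tecta here. The summed signal of 5 choroid plexus markers was 5872, 2624, 4510 and 1861 in NdpKO;Ptch+/- MB replicates 1 to 4, 32165, 9266, 1453 and 23386 in Ptch+/- MB replicates 1 to 4, and 3318 to 6727 in WT GNPs. Ptch+/- MB replicates 1 and 4 were highest in both Tecta and these markers, and NdpKO;Ptch+/- MB replicate 1 was highest in both within its group. Ptch+/- MB replicate 3 had a lower marker sum than any NdpKO;Ptch+/- MB and still read 9.54 for Tecta. Its Ttr was at background (4.14), and its sum was carried mostly by Otx2 (10.31). Otx2 also carried most of the sum in NdpKO;Ptch+/- MB replicate 3 (12.02) and read 11.31 to 11.58 in WT GNPs. Where Ttr was low, the sum therefore measured mainly Otx2. Of the 5 markers Folr1 was under the limit on every array, 0 passed between the tumor genotypes, and Ttr averaged 6.20 ± 3.38 in NdpKO;Ptch+/- MBs and 11.42 ± 4.95 in Ptch+/- MBs. The part of choroid plexus cells in the Tecta values was not tested.

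Genes nearest in pattern were found among 2050 genes with a range over 2 log2 units, by the root mean square difference over the 12 arrays after each gene was centred on its own mean. For Spon2 they were Lrrfip1 (0.603 log2 units), Nid2 (0.620), which encodes a nidogen of basement membranes, and Ndn (0.662), which encodes the imprinted neuronal protein necdin. For Tecta they were Lcn2 (1.16), an acute phase protein of reactive glia, and Cd74 (1.38) and H2-Ab1 (1.43), both of MHC class II antigen presentation. Lcn2 averaged 4.17 in NdpKO;Ptch+/- MBs, 10.67 in Ptch+/- MBs and 4.14 in WT GNPs. Within the Ptch+/- MBs the match was loose, since Lcn2 read 9.39 in replicate 1, where Tecta read 11.63, and NdpKO;Ptch+/- MB replicate 1, which held Tecta, read 4.13 for Lcn2. For Tnc the nearest were Rfx4 (0.509), Plk2 (0.583) and Vasn (0.588), and for Vcan Lor (0.109), Kctd8 (0.114) and Eya1 (0.127).

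**Figure D4:**
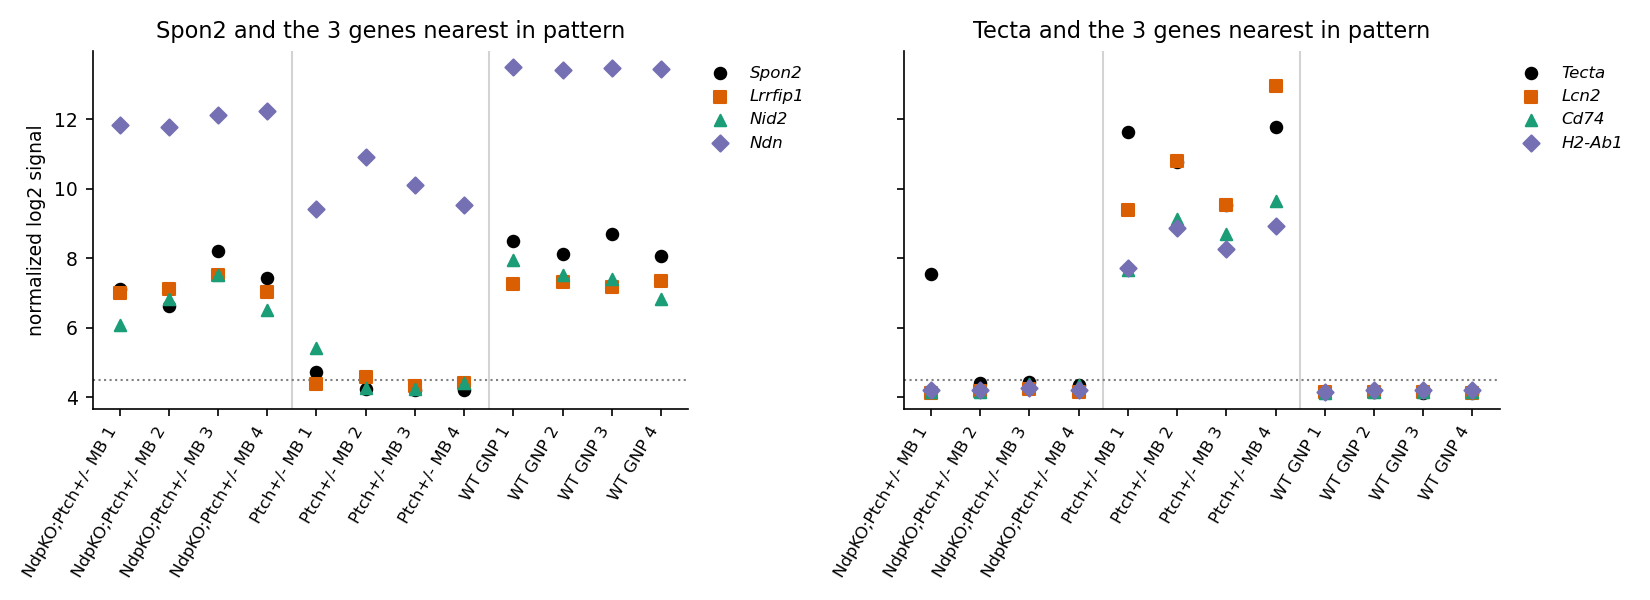
Normalized log2 signal on each array of Spon2 (left) and Tecta (right) with the 3 genes nearest to each in pattern over 12 arrays, in NdpKO;Ptch+/- MBs, Ptch+/- MBs and WT GNPs, with the background limit of 4.5 (dotted). Spon2 and Lrrfip1 read between 6.62 and 8.71 in NdpKO;Ptch+/- MBs and WT GNPs, and Tecta, but not its 3 neighbours, is above background in NdpKO;Ptch+/- MB replicate 1.

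Of 120 further genes of the same pathways in 9 lists, 113 were on the array and 60 reached the background limit. Between the tumor genotypes 1 was higher in NdpKO;Ptch+/- MBs, 3 were lower and 56 did not pass, beside 1.54% higher and 2.42% lower over all genes, and the median difference was -0.05, beside 0.01 over all genes above background. The higher gene was Chst7, a chondroitin 6-sulfotransferase that lies 3.15 Mb from Ndp on the X chromosome. It read 7.86, 8.08, 8.05 and 8.29 in NdpKO;Ptch+/- MBs, 6.52, 6.15, 7.25 and 5.93 in Ptch+/- MBs, and 7.06, 6.67, 7.19 and 7.11 in WT GNPs (1.61 between tumor genotypes, adjusted p = 0.0192). The other 8 genes of chondroitin sulfate synthesis above background did not pass between the tumor genotypes.

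The lower genes were Sdc4, Src and Spock2. Syndecan 4 (Sdc4), a proteoglycan coreceptor of the cell surface, read 6.47, 5.76, 5.91 and 6.38 in NdpKO;Ptch+/- MBs, 7.23, 7.91, 8.67 and 8.52 in Ptch+/- MBs, and 6.04, 6.19, 6.49 and 6.38 in WT GNPs (-1.95 between tumor genotypes, adjusted p = 0.0174). The Ptch+/- MBs stood above both other groups without overlap. Src, a kinase that phosphorylates the reelin adaptor Dab1, averaged 7.48 ± 0.22 in NdpKO;Ptch+/- MBs, 8.26 ± 0.28 in Ptch+/- MBs and 7.49 ± 0.17 in WT GNPs (-0.79, adjusted p = 0.0443). Spock2, a testican proteoglycan, averaged 6.21 ± 0.44 in NdpKO;Ptch+/- MBs, 7.35 ± 0.34 in Ptch+/- MBs and 8.51 ± 0.05 in WT GNPs (-1.14, adjusted p = 0.0422). Of these 4 calls, 0 were left without NdpKO;Ptch+/- MB replicate 2 and 0 when only the tumors were fitted.

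Against WT GNPs, 10 of the 60 genes were higher, 16 were lower and 34 did not pass in NdpKO;Ptch+/- MBs, and in Ptch+/- MBs 12 were higher, 13 were lower and 35 did not pass. Over all genes the shares were 14.4% higher and 13.1% lower in NdpKO;Ptch+/- MBs, and 18.6% and 18% in Ptch+/- MBs. The genes named in this paragraph were chosen after their values were seen. Higher in both kinds of tumor were Cd44, the hyaluronan receptor (2.28 in NdpKO;Ptch+/- MBs and 1.81 in Ptch+/- MBs), the hyaluronidase Hyal2 (1.11 and 1.23), and the integrin Itga9, a tenascin C receptor subunit (3.63 and 3.36), each with NdpKO;Ptch+/- MBs first. The hyaluronidase Hyal1 averaged 6.05 ± 0.70 in NdpKO;Ptch+/- MBs and 5.95 ± 0.24 in Ptch+/- MBs and passed against WT GNPs, all of which were under the limit, so no exact difference is given. Also higher were the proteoglycans Cspg5 (1.54 and 1.87), Cspg4 (1.70 and 1.34) and Ptprz1 (1.41 and 1.49), in the same order. The values of Itga9 and Cspg4 are fitted, since 3 of the 4 WT GNPs were under the limit for each. Cspg4 is also 1 of the oligodendrocyte progenitor markers counted above.

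Lower in both were Spock3 (-4.08 in NdpKO;Ptch+/- MBs and -4.09 in Ptch+/- MBs), the cartilage acidic protein Crtac1 (-3.67 and -3.66), the lectican-cleaving protease Adamts4 (-2.72 and -2.76) and the chondroitin 6-sulfotransferase Chst3 (-1.60 and -1.62). These are fitted values, since Spock3, Crtac1 and Chst3 were under the limit on all tumor arrays and Adamts4 on all but 1 of each genotype; they too were chosen after their values were seen. In WT GNPs Spock3 averaged 8.21 ± 0.99, Crtac1 7.83 ± 0.18, Adamts4 7.14 ± 1.08 and Chst3 5.82 ± 0.44. The WT GNPs also held the oligodendrocyte RNA described above, whose part in these values was not tested.

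All 11 genes of reelin reception and signalling reached the background limit on at least 1 array. Fyn and Socs7 did so only in WT GNPs, so, like Vcan, they count only through the group where they are high. In NdpKO;Ptch+/- MBs against WT GNPs 0 were higher, 5 were lower and 6 did not pass, and in Ptch+/- MBs 1 was higher (Src) and 4 were lower, beside the shares of all genes given for these comparisons above (13.1% and 18% lower). Dab1, the adaptor that carries the signal inside the cell, averaged 4.60 ± 0.52 in NdpKO;Ptch+/- MBs, 4.5 ± 0.22 in Ptch+/- MBs and 6.57 ± 0.55 in WT GNPs (adjusted p = 0.00281 for NdpKO;Ptch+/- MBs and 0.00159 for Ptch+/- MBs). The reelin receptor Lrp8 averaged 7.69 ± 0.32 in NdpKO;Ptch+/- MBs, 7.75 ± 0.57 in Ptch+/- MBs and 8.80 ± 0.15 in WT GNPs (adjusted p = 0.0223 and 0.0229 for the tumors in that order). The other receptor, Vldlr, averaged 9.55 ± 0.25 in NdpKO;Ptch+/- MBs, 10.17 ± 0.43 in Ptch+/- MBs and 9.96 ± 0.21 in WT GNPs and did not pass in any comparison. The ligand gene Reln passed in no comparison either.

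The hyaluronan synthase Has2 averaged 5.24 ± 0.87 in NdpKO;Ptch+/- MBs, 4.22 ± 0.08 in Ptch+/- MBs and 4.45 ± 0.13 in WT GNPs (adjusted p = 0.236 between tumor genotypes). The thrombospondin gene Thbs2 read 4.39, 5.27, 6.54 and 7.85 in Ptch+/- MBs and stayed under the limit in NdpKO;Ptch+/- MBs (adjusted p = 0.238). Of 14 genes of the tectorial membrane or with a zona pellucida domain, the domain that Tecta carries, only Col9a2 reached the limit, at 5.67 ± 0.84 in NdpKO;Ptch+/- MBs, 6.84 ± 0.96 in Ptch+/- MBs and 6.86 ± 0.28 in WT GNPs. The other 13 genes of this list were under the limit on every array.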

How the data were processed

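Per the methods, the authors made the deposited log2 signals from BeadStudio output of the Illumina arrays by neqc in limma, which subtracts background estimated from negative controls, adds an offset (default 16) and then equalises the quantiles of all arrays. The version is not given in the sources used here. This removes differences in general level between arrays. Gene names are from the GEO platform annotation, which gives 1 symbol to 34885 probes, several to 18 and none to 10378. Groups were taken from the sample labels.

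A group-means model over the 12 arrays was fitted with lmFit and eBayes (limma 3.58.1, R 4.3.3), with no covariate, and p was adjusted over all 45281 probes. A gene above background reached 4.5 on at least 1 array. An "at least" fold is the brighter group's mean over that limit, used where the dimmer group lay under it on every array; other folds are fitted. The model was tested on simulated data with changes placed between the tumor genotypes on probes that reached 4.5 on all 12 arrays, so it does not cover dimmer genes. It recovered 57 of 100 changes of 1 log2 unit and 90 of 100 of 2 log2 units, with 9 false calls among the unchanged probes of the 45281 fitted. The 2-sided exact permutation test ran over 35 splits of 4 against 4 arrays, whose smallest p is 0.0286.

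The members, the wider lists and the cell markers were chosen with earlier results of these data known. The genes named are the members with all probes; wider-list genes that passed between the tumor genotypes, or up to 3 with the smallest p; up to 2 of the brightest markers per list and markers that passed; and the 3 genes nearest in pattern to each member with a range over 2. Exceptions are marked. Alternatives were other normalizations, filters, priors, weights and designs, a stricter threshold, the mean of a gene's probes, and leaving out each array.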

Additional observations from a re-analysis of the deposited data

Results flagged for a closer look

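In 2 of 18 groups of 4 arrays examined for the members, 1 array stood far from the other 3. Tecta in NdpKO;Ptch+/- MB replicate 1 read 7.54, against 4.44 on the next array of that group, a gap of 0.976 of the group's range. Spon2 in Ptch+/- MB replicate 1 read 4.72, against 4.23 on the next, a gap of 0.951 of the range. Both genes were selected on their values, and in both groups the other 3 arrays lay at background, where values hardly differ, so that any array above it gives a gap close to the whole range. The gaps are a description, and the rate of about 1 group in 20 that chance gives elsewhere does not apply to them.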

How the results depend on the processing

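Of the members, 0 passed between the tumor genotypes in any of 23 alternatives, and no direction that had passed was reversed. Vcan, at background in all tumors on its main probe, could not be compared between them. The 3 members that passed in NdpKO;Ptch+/- MBs against WT GNPs became 1 at an adjusted p under 0.01 and 2 to 3 with single arrays left out. In Ptch+/- MBs against WT GNPs the 3 became 1 with only those groups fitted, 0 at 0.01 and 1 to 3 with single arrays left out. Tnc passed in every alternative at 0.05 (highest adjusted p 0.0291 in NdpKO;Ptch+/- MBs and 0.0345 in Ptch+/- MBs). The exact permutation p of Tnc, Vcan and Bcan against WT GNPs was 0.0286, the smallest possible. The 4 wider-list calls between tumor genotypes became 0 with the tumors alone, 0 at 0.01, 0 with the replicate block and 0 to 4 with single arrays left out. At 0.01 the wider lists held 13 calls (26 at 0.05; 20 to 26 with arrays left out) in NdpKO;Ptch+/- MBs and 16 (25; 21 to 27) in Ptch+/- MBs against WT GNPs. Over all genes 382 passed between tumor genotypes, and 45 to 715 did under the alternatives (45 with the tumors alone, 715 without dim probes). With the mean of both probes, 1 of them at background, Spon2 differed by 1.51 between tumor genotypes and by -2.00 for Ptch+/- MBs minus WT GNPs. Replicate numbers did not pair the tumors (correlations of deviations -0.18 to 0.09), and the replicate block lost Vcan in NdpKO;Ptch+/- MBs (adjusted p = 0.0510) and Bcan in Ptch+/- MBs (0.0562) against WT GNPs. The cause of these changes was not tested. Some fits hold fewer arrays, and the main fit shares its estimate of the spread over all groups, WT GNPs included, which the fit of the tumors alone does not. Signals near 4.1 have no order, and 4 arrays per group limit the precision.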
